A study of Homo sapiens with 60 samples.

Results

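RNAseq profiles of ALG6/UGGT2-/- cells, which lack both ALG6 and UGGT2, were compared with those of ALG6-/- cells, which lack ALG6 alone. Each cell line gave 3 biological replicates, so that the comparison rests on 6 of the 15 libraries of the study. All genes with at least 1 CPM (mapped counts scaled to a common total per library) in at least 3 of these 6 libraries were taken, which left 14049 of the 42141 genes listed (33.3%). Both cell lines were made from HEK293-EBNA1-6E cells, a derivative of human embryonic kidney cells with the viral protein EBNA1, by CRISPR/Cas9 editing, and both lack ALG6, so the difference between them by design is UGGT2. UGGT1 was left intact in both. The other 3 cell lines of the study are ALG6/UGGT1/UGGT2-/- cells, ALG6/UGGT1-/- cells and unedited WT cells. All were untreated and were grown for 48 hours before poly(A) mRNA was collected. Each knockout line grew from a single cell, and each genotype is represented by 1 line, so an effect of losing UGGT2 and a difference between the clones cannot be told apart in any value below. The purpose of the comparison is to ask how the transcriptome differs when UGGT1 is the only UGGT enzyme left.

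N-glycoproteins receive their glycan in the endoplasmic reticulum (ER), and ALG6 adds the first glucose to the lipid-linked precursor of that glycan. Glycans trimmed to a single glucose are bound by the lectin chaperones calnexin and calreticulin, and UGGT1 and UGGT2 put that glucose back on proteins that are not yet folded, which sends them to the lectin chaperones again. In cells without ALG6 the transferred glycan carries no glucose, so binding to the lectin chaperones depends on the UGGTs. Misfolded protein in the ER is sensed by PERK, IRE1 and ATF6, which drive the branches of the unfolded protein response through the transcription factors ATF4, XBP1 and ATF6 itself. ATF4 is also driven by other kinases, among them the one that senses a shortage of amino acids.

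Differences were tested with limma on log2(CPM + 0.5), with Benjamini-Hochberg adjusted p-values over the 14049 genes, and a gene was called higher or lower at an adjusted p under 0.05. Values of a line are given as CPM in each library or as mean ± SD (n = 3). Fold changes are ratios of mean CPM as deposited, log2 fold changes are on the log2(CPM + 0.5) scale, and both are ALG6/UGGT2-/- over ALG6-/-. On the CPM scale as deposited 9609 genes (68.4% of those tested) were called, of which 6880 (49.0%) were higher and 2729 (19.4%) lower in ALG6/UGGT2-/- cells. The libraries were not on a common scale: the median ratio of a library's genes to their geometric mean over all libraries was between 0.99 and 1.12 in ALG6/UGGT2-/- cells and between 0.66 and 0.90 in ALG6-/- cells. Rescaling each library by this ratio shifted the median of the log2 fold changes of all genes by -0.44, to 0.02 against 0.46 as deposited. On the rescaled values 8629 genes (61.4%) were called, 4219 (30.0%) higher and 4410 (31.4%) lower. Each change below is therefore given on both scales wherever its call or direction differs between them. Replicates of the lines did not overlap, with ALG6/UGGT2-/- cells higher, in 6349 genes (45.2% of those tested), and with ALG6/UGGT2-/- cells lower in 2832 genes (20.2%). An exact permutation test of 3 libraries against 3 cannot give a two-sided p below 0.1 and none is used here.

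Across genes the change also followed the transcript. Genes in the third with the longest transcripts (median 6394 bases) had a median log2 fold change of 0.37 on the rescaled values, those in the third with the shortest (median 1694 bases) had -0.37, and Spearman's rho over 12950 genes was 0.34 with length and -0.45 with GC content. Replicates of each line differed from each other along the same lines: rho between GC content and a library's deviation from the mean of its line ran from -0.72 to 0.70 in ALG6/UGGT2-/- cells, and in ALG6-/- cells from -0.62 to 0.71. The part of this trend in the changes of single genes was not tested, but a fit corrected for length and GC content called 8919 of 12950 genes (68.9%), 4237 (32.7%) higher and 4682 (36.2%) lower, and its counts are given for the gene groups below. The counts of every gene group are to be read beside the shares of all genes called on the same scale. Library depth was similar, with 1 CPM worth 23.6 to 27.2 reads over the 15 libraries. Of 8 genes known for their expression in HEK293 cells, 7 were tested, and their summed level was 885 to 1041 CPM in ALG6/UGGT2-/- cells, against 883 to 1330.5 CPM in ALG6-/- cells. Markers of blood cells summed to 1.35 to 1.74 CPM in ALG6/UGGT2-/- cells, against 1.82 to 2.11 CPM in ALG6-/- cells, and markers of endothelium to 1.20 to 2.25 CPM in ALG6/UGGT2-/- cells, against 0.248 to 0.687 CPM in ALG6-/- cells. Markers of fibroblasts summed to 47.8 to 51.1 CPM in ALG6/UGGT2-/- cells, against 72.2 to 77.7 CPM in ALG6-/- cells, those of hepatocytes and gut to 20.0 to 21.6 CPM in ALG6/UGGT2-/- cells, against 28.6 to 34.7 CPM in ALG6-/- cells, and those of squamous epithelium to 11.1 to 14.0 CPM in ALG6/UGGT2-/- cells, against 5.30 to 10.9 CPM in ALG6-/- cells. The part of other cell types in the results was not tested. As the libraries are bulk samples, fewer cells of a kind and less RNA per cell cannot be told apart.

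Before any gene is described, the place of both lines among the 5 needs to be given, because it bears on every result. After rescaling, the 3 ALG6/UGGT2-/- libraries lay above or below all 12 other libraries in 619 of the 14049 genes (4.41%), whereas the 3 ALG6-/- libraries did so in 4024 genes (28.6%). Among the 8629 genes called, 604 (7.0%) had ALG6/UGGT2-/- cells apart from the other 4 lines and 3995 (46.3%) had ALG6-/- cells apart. Against WT cells, 924 genes (6.58%) were called in ALG6/UGGT2-/- cells, with 477 (3.40%) higher and 447 (3.18%) lower, and 7387 (52.6%) in ALG6-/- cells, with 3955 (28.2%) higher and 3432 (24.4%) lower. These last counts share the libraries of the lines compared and are set side by side only. The level in WT cells is therefore given below for some of the genes with large differences. Where it is not given, either line may be the one that differs from WT cells.

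The knocked-out genes were examined first. ALG6 (chromosome 1, 63367575 to 63438553 in GRCh38) was at 3.55, 4.59 and 5.87 CPM in ALG6/UGGT2-/- cells and 1.29, 1.10 and 1.03 CPM in ALG6-/- cells, against 12.7 to 15.6 CPM in WT cells. Both lines were therefore low in ALG6 mRNA, and the log2 fold change between them was 1.63 with a standard error of 0.18 (adjusted p = 5.97e-06). UGGT2 (chromosome 13, 95801580 to 96053482) was at 11.2, 14.9 and 17.8 CPM in ALG6/UGGT2-/- cells and 11.6, 7.50 and 13.6 CPM in ALG6-/- cells. The libraries overlapped, and UGGT2 did not pass the test as deposited (log2 fold change 0.43, standard error 0.26, adjusted p = 0.154) or rescaled (-0.02, adjusted p = 0.933), while the fit corrected for length and GC content gave -0.62 (adjusted p = 0.000162). An mRNA that carries a small edit can keep its level, so these values do not check the loss of the enzyme. UGGT1 (chromosome 2, 128091200 to 128195677), intact in both lines, was at 59.5, 77.0 and 77.6 CPM in ALG6/UGGT2-/- cells and 83.9, 13.1 and 34.4 CPM in ALG6-/- cells. It did not pass the test (log2 fold change 1.06, adjusted p = 0.0704), and without ALG6-/- replicate 1 the log2 fold change was 1.71 (adjusted p = 0.0013).

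Targets of PERK and ATF4, which make amino acids, import them and control cell death under stress, had the highest median of the 27 gene lists examined. Of 36 genes of this list tested, 33 were higher and 1 lower in ALG6/UGGT2-/- cells as deposited, 29 were higher and 2 lower after rescaling, and 30 of 34 were higher and 2 lower once length and GC content were corrected for. Their median log2 fold change was 1.89 as deposited and 1.43 rescaled, beside 0.46 and 0.02 for all genes. Together they held 14717 to 15379 CPM in the ALG6/UGGT2-/- libraries and 6827 to 7603 CPM in the ALG6-/- libraries, against 11974 to 13282 CPM in WT cells. The number of lower genes was 2 without ALG6-/- replicate 1 or ALG6/UGGT2-/- replicate 1.

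CHAC1 (chromosome 15, 40952962 to 40956512), an enzyme that degrades glutathione, was at 179.7, 164 and 162 CPM in ALG6/UGGT2-/- cells and 7.19, 8.01 and 8.15 CPM in ALG6-/- cells. It was 21.7-fold higher (log2 fold change 4.35, standard error 0.10, adjusted p = 2.51e-11, and 3.91 rescaled), with 102 to 130.3 CPM in WT cells. TRIB3, a pseudokinase induced by ATF4 that dampens its activity, was at 898, 812 and 801 CPM in ALG6/UGGT2-/- cells and 58.2, 69.6 and 60.6 CPM in ALG6-/- cells. Its libraries were separated by 13.3-fold between the means, and WT cells held 582 to 740.2 CPM. ATF5, a transcription factor of the same pathway, was at 157, 149 and 145 CPM in ALG6/UGGT2-/- cells and 14.3, 18.5 and 15.1 CPM in ALG6-/- cells, 9.41-fold higher. The pro-apoptotic transcription factor CHOP, encoded by DDIT3, was at 43.3, 49.8 and 49.2 CPM in ALG6/UGGT2-/- cells and 11.5, 7.17 and 10.0 CPM in ALG6-/- cells. For each of these genes the lowest ALG6/UGGT2-/- library lay above the highest ALG6-/- library on the deposited scale.

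Enzymes and carriers of amino acids followed. CTH, which makes cysteine from cystathionine, was at 112, 120.5 and 125 CPM in ALG6/UGGT2-/- cells and 14.5, 13.7 and 13.8 CPM in ALG6-/- cells (8.52-fold higher, log2 fold change 3.04, adjusted p = 7.78e-11). SLC7A11, which brings cystine into the cell, was at 62.0, 125 and 146 CPM in ALG6/UGGT2-/- cells and 13.9, 4.92 and 7.61 CPM in ALG6-/- cells, 12.6-fold higher on average. The spread of SLC7A11 within each line was wide but the lines did not overlap. PSAT1, an enzyme of serine synthesis, was at 446, 484 and 491 CPM in ALG6/UGGT2-/- cells and 138, 85.3 and 111 CPM in ALG6-/- cells, and ASNS, which makes asparagine, was at 1132, 978 and 1016 CPM in ALG6/UGGT2-/- cells against 499, 518 and 482 CPM in ALG6-/- cells. ASNS had a smaller log2 fold change of 1.06 as deposited and 0.59 rescaled (adjusted p = 0.0316). The 1 lower gene as deposited was CBS, which makes the cystathionine that CTH splits: it was at 18.7, 12.7 and 12.1 CPM in ALG6/UGGT2-/- cells and 64.8, 71.3 and 74.8 CPM in ALG6-/- cells, 4.84-fold lower. CBS has a near-identical copy in the genome that can share its reads. The enzymes that follow each other on the path to cysteine thus moved in opposite directions. SHMT2, a mitochondrial enzyme that splits serine, was the other lower gene after rescaling (log2 fold change -0.74, adjusted p = 0.00823), and its libraries overlapped as deposited.

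The factors above these targets moved less. ATF4, whose protein is controlled mainly by translation, was at 1024, 965 and 962 CPM in ALG6/UGGT2-/- cells and 631, 619 and 646 CPM in ALG6-/- cells. It was 1.56-fold higher as deposited (log2 fold change 0.64, adjusted p = 4.32e-06), but rescaling took it to 0.17 (adjusted p = 0.359). ATF3, a stress factor that ATF4 induces, was at 796, 726 and 770.1 CPM in ALG6/UGGT2-/- cells and 149, 168 and 163 CPM in ALG6-/- cells, 4.78-fold higher, with 388 to 531 CPM in WT cells. EIF2AK3, which encodes PERK, was at 13.3, 22.9 and 22.6 CPM in ALG6/UGGT2-/- cells and 10.7, 2.25 and 5.38 CPM in ALG6-/- cells. The highest ALG6-/- library came close to the lowest ALG6/UGGT2-/- library, and the log2 fold change of EIF2AK3 was 1.79 (standard error 0.43, adjusted p = 0.00272).

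Because ATF4 and ATF6 act through known motifs, promoters were searched over the 250 bases before the transcription start, as RefSeq gives them in GRCh38.p14. The CARE motif, bound by ATF4, was spelled TGATGNAA and searched on both strands. It was present in 1104 of 35116 promoters (3.14%) and in 4 of the 26 PERK and ATF4 targets with a promoter in the table, namely ASNS, ATF3, CEBPG and CHAC1. Here and for the next motif the percentage is over promoters, while a listed gene counted once if any of its promoters matched. The shares are therefore not on the same basis. The ER stress element ERSE, bound by ATF6 with NF-Y, was searched as CCAAT, any 9 bases and CCACG, and was found in 26 promoters (0.074%). ERSE was present in 5 of the 15 ATF6 targets and ER chaperones with a promoter: CALR, CRELD2, HSP90B1, HSPA5 and PDIA6. It was in none of the 26 PERK and ATF4 targets, and CARE was in 1 of the 15 ATF6 targets, HERPUD1. No match overlapped a match of the other motif in the promoters shown. TRIB3, ATF5, CTH, PDIA4 and SDF2L1 were not among the matches, whether or not their promoters were in the table. A match is a description of the letters only, and the promoters shown were picked among those with a match. CHAC1 and ATF3 are shown as targets that were higher, HSPA5 and CALR as chaperone genes that were not, each 5′ to 3′ on the strand of its gene with the motif in capitals. CHAC1 lies at chr15:40953221-40953470 on the plus strand, with CARE in antisense from base 209 to base 202 before the start. This stretch is inside the span of CHAC1 given above, which is from GENCODE and begins before the RefSeq start. ATF3 lies at chr1:212565157-212565406 on the plus strand, with CARE in sense from base 191 to base 184. HSPA5 lies at chr9:125241344-125241593 on the minus strand, with ERSE in sense from base 66 to base 48. CALR lies at chr19:12938359-12938608 on the plus strand, with ERSE in antisense from base 225 to base 207.
CHAC1: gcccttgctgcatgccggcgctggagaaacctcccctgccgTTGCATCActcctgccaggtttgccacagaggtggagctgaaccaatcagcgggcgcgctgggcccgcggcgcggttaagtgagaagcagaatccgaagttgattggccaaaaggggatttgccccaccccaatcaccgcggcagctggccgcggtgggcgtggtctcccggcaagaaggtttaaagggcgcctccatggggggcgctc
ATF3: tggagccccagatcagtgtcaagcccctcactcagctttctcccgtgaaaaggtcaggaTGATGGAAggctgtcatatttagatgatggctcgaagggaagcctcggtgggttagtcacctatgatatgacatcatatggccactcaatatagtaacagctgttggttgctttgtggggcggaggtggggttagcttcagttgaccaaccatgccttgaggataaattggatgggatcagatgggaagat
HSPA5: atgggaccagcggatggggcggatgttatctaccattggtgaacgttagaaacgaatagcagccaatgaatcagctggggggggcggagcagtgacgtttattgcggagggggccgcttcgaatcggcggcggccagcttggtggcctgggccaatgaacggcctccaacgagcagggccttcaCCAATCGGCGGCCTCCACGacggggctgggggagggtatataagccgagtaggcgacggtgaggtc
CALR: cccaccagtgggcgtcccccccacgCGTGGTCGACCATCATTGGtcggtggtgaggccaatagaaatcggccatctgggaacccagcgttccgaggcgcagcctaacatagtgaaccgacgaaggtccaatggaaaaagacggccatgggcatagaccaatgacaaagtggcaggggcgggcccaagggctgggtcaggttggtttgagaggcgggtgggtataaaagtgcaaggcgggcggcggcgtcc

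ATF6 targets and ER chaperones did not follow the ATF4 targets. Of 16 genes, 3 were higher and 7 lower in ALG6/UGGT2-/- cells as deposited, 1 was higher and 11 lower after rescaling, and 3 were higher and 12 lower once length and GC content were corrected for. The median log2 fold change was -0.08 as deposited and -0.55 rescaled. CALR, the lectin chaperone calreticulin, was at 441, 397 and 379 CPM in ALG6/UGGT2-/- cells and 655, 828 and 765 CPM in ALG6-/- cells, 1.85-fold lower (log2 fold change -0.88, adjusted p = 8.23e-06). PDIA4, a disulfide isomerase, was 1.84-fold lower, at 199 ± 9.35 CPM in ALG6/UGGT2-/- cells, against 365 ± 36.2 CPM in ALG6-/- cells. SDF2L1, a partner of the chaperone BiP, was 1.99-fold lower, at 24.6 ± 1.20 CPM in ALG6/UGGT2-/- cells, against 49.0 ± 3.65 CPM in ALG6-/- cells. None of these 3 genes had overlapping libraries. HSPA5, which encodes BiP, was at 475, 527 and 513 CPM in ALG6/UGGT2-/- cells and 1031, 334 and 582 CPM in ALG6-/- cells. The ALG6-/- libraries lay on both sides of the ALG6/UGGT2-/- libraries, and HSPA5 did not pass the test as deposited (log2 fold change -0.21, adjusted p = 0.509), while it was lower after rescaling (-0.68, adjusted p = 0.0107). Without ALG6-/- replicate 1 the deposited value of HSPA5 was 0.19 (adjusted p = 0.355), without ALG6-/- replicate 2 it was -0.62 (adjusted p = 0.013), and without ALG6-/- replicate 1 the number of higher genes in this list was 5. SEL1L, the adaptor of the HRD1 ubiquitin ligase, stood out as the gene of this list that was higher on both scales: it was at 74.7, 108 and 123 CPM in ALG6/UGGT2-/- cells and 25.0, 6.36 and 14.7 CPM in ALG6-/- cells, 6.65-fold higher on average (log2 fold change 2.86, standard error 0.39, adjusted p = 4.05e-05).

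IRE1 cuts the XBP1 mRNA, and XBP1 then raises genes for ER import, folding and degradation. XBP1 itself was at 620.0, 577 and 573 CPM in ALG6/UGGT2-/- cells and 156, 148 and 147 CPM in ALG6-/- cells, 3.92-fold higher (log2 fold change 1.97, adjusted p = 5.41e-09), with 383 to 466 CPM in WT cells. Gene counts do not separate the cut from the uncut mRNA. ERN1, which encodes IRE1, was at 36.9, 38.9 and 41.7 CPM in ALG6/UGGT2-/- cells and 26.0, 12.4 and 15.1 CPM in ALG6-/- cells, and was also higher on both scales. Among the 26 IRE1 and XBP1 targets, 14 were higher and 3 lower as deposited, where 49.0% of all genes were higher and 19.4% lower. After rescaling 8 were higher and 6 lower, where 30.0% of all genes were higher and 31.4% lower. The median of 0.40, beside 0.46 for all genes, became -0.06. Under the length and GC correction 8 were higher and 10 lower, beside 32.7% and 36.2% of all genes. The targets as a group thus stayed near all genes in the share called higher. SRPRB and SRP54, parts of the machinery that brings proteins to the ER, kept their call after rescaling, with log2 fold changes of 0.96 and 1.64 as deposited and 0.49 and 1.19 rescaled, whereas SRPRA went to 0.02 (adjusted p = 0.905). EDEM2, a mannosidase of ER-associated degradation, had a log2 fold change of -0.27 (adjusted p = 0.0382) that missed the threshold without ALG6-/- replicate 2 or 3 or ALG6/UGGT2-/- replicate 2 or 3 (adjusted p of 0.076 to 0.147), at 20.8 ± 1.25 CPM in ALG6/UGGT2-/- cells, against 25.2 ± 2.93 CPM in ALG6-/- cells. Of 9 stress sensors, 4 were higher and 2 lower as deposited, 3 and 3 after rescaling, and 4 and 4 with the length and GC correction. These counts too are to be read beside the shares of all genes just given. Among them ATF6 did not pass the test, with 47.6, 61.8 and 68.0 CPM in ALG6/UGGT2-/- cells and 66.8, 23.9 and 41.1 CPM in ALG6-/- cells. Its relative ATF6B was lower, at 68.5 ± 4.25 CPM in ALG6/UGGT2-/- cells, against 124 ± 8.0 CPM in ALG6-/- cells.

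**Figure D1:**
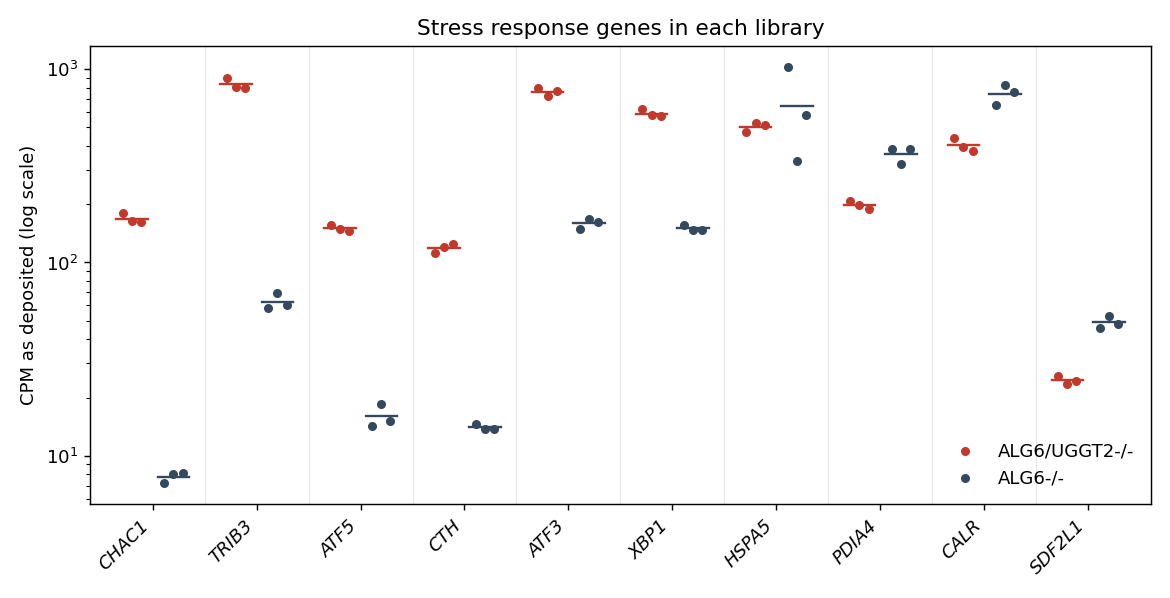
CPM as deposited (log axis) of 10 stress response genes in each library, ALG6/UGGT2-/- cells in red and ALG6-/- cells in dark blue, with a line at the mean of 3 replicates. CHAC1, TRIB3, ATF5, CTH, ATF3 and XBP1 were higher in ALG6/UGGT2-/- cells in every library, PDIA4, CALR and SDF2L1 were lower, and the ALG6-/- libraries of HSPA5 (1031, 334 and 582 CPM) spread around those of ALG6/UGGT2-/- cells.

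Genes of degradation from the ER went in both directions. Of 25 genes, 14 were higher and 7 lower in ALG6/UGGT2-/- cells as deposited, 8 were higher and 10 lower after rescaling, where 30.0% of all genes were higher and 31.4% lower, and 10 were higher and 12 lower with the length and GC correction. RNF5, a ubiquitin ligase of the ER membrane, was at 56.3, 48.9 and 49.2 CPM in ALG6/UGGT2-/- cells and 144, 199 and 165 CPM in ALG6-/- cells, 3.29-fold lower (log2 fold change -1.70, adjusted p = 7.70e-08), with a mean of 50.7 CPM in WT cells. DERL3, a derlin that helps proteins leave the ER, was 2.32-fold lower, at 8.66 ± 0.307 CPM in ALG6/UGGT2-/- cells, against 20.1 ± 0.753 CPM in ALG6-/- cells. OS9, a lectin that recognises trimmed glycans, was 1.61-fold lower. UFD1L, which takes proteins to the proteasome, had a log2 fold change of 0.91 as deposited that missed the threshold after rescaling (0.45, adjusted p = 0.0587).

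Of 23 genes that build the N-glycan precursor, 17 were higher and 2 lower as deposited, where 49.0% of all genes were higher and 19.4% lower. Their median was 0.64, beside 0.46 for all genes. After rescaling 8 were higher and 3 lower, with a median of 0.18, where 30.0% of all genes were higher and 31.4% lower. With the length and GC correction 12 were higher and 3 lower, beside 32.7% and 36.2% of all genes. Those higher on both scales were ALG2, ALG5, ALG8, ALG10, ALG10B, ALG13, DPM1 and DOLK. DOLK, the kinase that activates dolichol, was at 22.9, 21.4 and 23.2 CPM in ALG6/UGGT2-/- cells and 9.41, 11.3 and 10.2 CPM in ALG6-/- cells, 2.19-fold higher. ALG8, which adds the glucose that follows the one added by ALG6, had a log2 fold change of 1.02 as deposited and 0.57 rescaled (adjusted p = 0.000859). Both lower genes act on mannose: ALG3, a mannosyltransferase, was at 84.7 ± 4.66 CPM in ALG6/UGGT2-/- cells, against 164 ± 5.75 CPM in ALG6-/- cells, and DPM3, a subunit of dolichol-phosphate mannose synthase, was at 28.9 ± 2.12 CPM in ALG6/UGGT2-/- cells, against 65.5 ± 8.76 CPM in ALG6-/- cells. In the oligosaccharyltransferase, which transfers the glycan to protein, 1 of 12 genes was higher and 5 were lower as deposited, and 0 were higher and 7 lower after rescaling (0 and 8 with the length and GC correction). The deposited number higher was 3 without ALG6-/- replicate 1 and 2 without ALG6/UGGT2-/- replicate 1. DDOST and OST4 were 1.62-fold and 1.81-fold lower, while the catalytic subunits STT3A (adjusted p = 0.23) and STT3B (adjusted p = 0.275) did not pass the test as deposited and had overlapping libraries.

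Around the UGGTs themselves, in the calnexin cycle, 2 of 14 genes were higher and 6 lower as deposited, and 2 were higher and 9 lower after rescaling (2 and 10 with the length and GC correction), and without ALG6-/- replicate 1 the deposited number higher was 4. PRKCSH, a subunit of the glucosidase that trims the glycan, was at 339, 321 and 307 CPM in ALG6/UGGT2-/- cells and 558, 642 and 597 CPM in ALG6-/- cells, 1.86-fold lower. MAN1B1, the ER mannosidase that ends a protein's stay in the cycle, was at 47.3, 42.7 and 41.6 CPM in ALG6/UGGT2-/- cells and 94.4, 119.8 and 103 CPM in ALG6-/- cells, 2.41-fold lower. MOGS, which removes the outermost glucose, was also lower on both scales, with log2 fold changes of -0.78 and -1.24. CLGN, calmegin, a relative of calnexin best known from testis, was instead at 46.3, 48.5 and 57.4 CPM in ALG6/UGGT2-/- cells and 13.1, 13.6 and 16.6 CPM in ALG6-/- cells, 3.52-fold higher. CANX, calnexin, was at 289, 418 and 444 CPM in ALG6/UGGT2-/- cells and 483, 127 and 281 CPM in ALG6-/- cells, and its overlapping libraries did not pass the test (log2 fold change 0.54, adjusted p = 0.206).

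Lysosomal hydrolases were lower as a group in ALG6/UGGT2-/- cells. Of 41 genes for lysosomal enzymes and their activators, 5 were higher and 20 lower as deposited, 2 were higher and 32 lower after rescaling, and 4 of 40 were higher and 31 lower once length and GC content were corrected for. The median log2 fold change was -0.27 as deposited and -0.74 rescaled. GM2A, the activator that presents a ganglioside to its hydrolase, was at 26.4, 23.5 and 23.6 CPM in ALG6/UGGT2-/- cells and 61.5, 73.6 and 68.6 CPM in ALG6-/- cells, 2.77-fold lower (log2 fold change -1.45, adjusted p = 1.21e-07). CTSA, protective cathepsin A, was 2.60-fold lower, at 17.0 ± 1.58 CPM in ALG6/UGGT2-/- cells, against 44.3 ± 5.15 CPM in ALG6-/- cells. PSAP, the precursor of the saposins, was 2.39-fold lower, at 688 ± 43.8 CPM in ALG6/UGGT2-/- cells, against 1641 ± 192 CPM in ALG6-/- cells. The level of these 3 genes in WT cells, 27, 21 and 682 CPM on average, lay near that of ALG6/UGGT2-/- cells.

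Genes for lysosomal enzymes whose mRNA the study followed gave mixed values. HEXA, which encodes a chain of β-hexosaminidase, was at 106, 93.9 and 90.1 CPM in ALG6/UGGT2-/- cells and 163, 206 and 180.4 CPM in ALG6-/- cells (log2 fold change -0.91, adjusted p = 1.01e-05). GLA, α-galactosidase A, was at 83.7, 74.4 and 71.5 CPM in ALG6/UGGT2-/- cells and 158, 191 and 177 CPM in ALG6-/- cells (-1.19, adjusted p = 2.26e-06). TPP1, a peptidase, was 1.5-fold lower, at 31.6 ± 0.600 CPM in ALG6/UGGT2-/- cells, against 47.3 ± 3.17 CPM in ALG6-/- cells. ARSA, FUCA1 and NAGLU had overlapping libraries and did not pass the test as deposited, though NAGLU did without ALG6-/- replicate 2 (log2 fold change 0.23, adjusted p = 0.0467). Their log2 fold changes were 0.07, 0.00 and 0.11 as deposited and -0.39, -0.46 and -0.35 rescaled, where ARSA (adjusted p = 0.0369) and FUCA1 (adjusted p = 0.0323) were called lower. GALC, galactosylceramidase (chromosome 14, 87837820 to 87993665), went the other way: it was at 4.35, 5.57 and 6.14 CPM in ALG6/UGGT2-/- cells and was listed at 0 in all 3 ALG6-/- libraries. It was also listed at 0 in all 3 ALG6/UGGT1/UGGT2-/- libraries, while WT and ALG6/UGGT1-/- cells held 3.29 and 4.22 CPM on average. Among 27 genes of the lysosomal membrane and its proton pump, 4 were higher and 10 lower as deposited and 1 was higher and 15 lower after rescaling (2 and 19 with the length and GC correction), and without ALG6-/- replicate 1 the deposited number higher was 10. LAMP1, the main membrane glycoprotein, was 2.03-fold lower, and ATP6V1B2, a subunit of the pump, had a log2 fold change of 1.04 as deposited and 0.58 rescaled.

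Genes for the proteins seen to be reglucosylated in ALG6/UGGT2-/- cells, where UGGT1 is the enzyme left, were examined as a list. As the study chose it on the same cell lines, it is not independent evidence of its direction. As deposited, 15 of the 66 genes tested were higher and 24 lower, and after rescaling 8 were higher and 32 lower, with medians of -0.01 and -0.47. With the length and GC correction 5 of 65 were higher and 44 lower. The deposited number higher was 24 without ALG6-/- replicate 1 and 9 without ALG6/UGGT2-/- replicate 2 or 3. CTSD, cathepsin D, was 2.45-fold lower, at 103, 92.2 and 91.1 CPM in ALG6/UGGT2-/- cells and 211, 262 and 231 CPM in ALG6-/- cells. PLXNA1, a semaphorin receptor, was 2.22-fold higher, at 327, 319.9 and 307 CPM in ALG6/UGGT2-/- cells and 133, 147 and 149.7 CPM in ALG6-/- cells. IGF2R, the receptor that carries hydrolases to the lysosome, was at 207, 219 and 219 CPM in ALG6/UGGT2-/- cells and 159, 90.4 and 116 CPM in ALG6-/- cells (log2 fold change 0.85, adjusted p = 0.00488). IGF1R, a growth factor receptor, was at 100, 141 and 133 CPM in ALG6/UGGT2-/- cells and 215, 74.3 and 124 CPM in ALG6-/- cells, which overlapped and did not pass the test (-0.03, adjusted p = 0.956). The list used for the proteins reglucosylated in ALG6/UGGT1-/- cells, where UGGT2 is the enzyme left, held 32 genes and may not be complete. Of these, 7 were higher and 13 lower as deposited and 3 were higher and 19 lower after rescaling (1 and 21 with the length and GC correction), and without ALG6-/- replicate 1 the deposited number higher was 12.

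Heat shock genes were split. The genes for inducible HSP70, HSPA1A (chromosome 6, 31815543 to 31817946) and HSPA1B (31827738 to 31830254), are near-identical copies whose reads can be shared out wrongly between them, and both were among the largest falls. HSPA1B was at 440.2, 426 and 416 CPM in ALG6/UGGT2-/- cells and 6834, 6057 and 6158 CPM in ALG6-/- cells, 14.9-fold lower (log2 fold change -3.89, standard error 0.10, adjusted p = 3.96e-11, and -4.35 rescaled). HSPA1A was at 372, 374 and 357 CPM in ALG6/UGGT2-/- cells and 5919, 5051 and 5142 CPM in ALG6-/- cells, 14.6-fold lower. In WT cells the means were 507 and 505 CPM, so it was ALG6-/- cells that stood apart. HSPB1, a small heat shock protein, was 1.67-fold lower. By contrast DNAJA1, a cochaperone of HSP70, was at 85.6, 113 and 129 CPM in ALG6/UGGT2-/- cells and 42.9, 20.3 and 35.1 CPM in ALG6-/- cells, 3.33-fold higher, and HSPA8, HSPH1 and HSP90AA1 were higher on both scales, with log2 fold changes of 0.91, 1.38 and 0.78 as deposited. Of 16 genes 7 were higher and 5 lower as deposited, and 4 were higher and 8 lower after rescaling (5 and 8 with the length and GC correction).

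Cholesterol synthesis was lower in ALG6/UGGT2-/- cells. Of 24 genes, 3 were higher and 14 lower as deposited, 0 were higher and 19 lower after rescaling, and 3 were higher and 19 lower once length and GC content were corrected for, with a median log2 fold change of -0.42 as deposited and -0.88 rescaled. INSIG1, which holds the sterol sensor in the ER and is itself induced when sterol is low, was at 52.0, 63.6 and 65.2 CPM in ALG6/UGGT2-/- cells and 598, 267 and 438 CPM in ALG6-/- cells, 7.21-fold lower (log2 fold change -2.77, adjusted p = 7.15e-07). FDFT1, squalene synthase, was at 52.8, 47.4 and 47.9 CPM in ALG6/UGGT2-/- cells and 208, 232 and 226 CPM in ALG6-/- cells, 4.50-fold lower. The lines were apart by a wide margin in both genes, and WT cells averaged 75.9 and 53.3 CPM. SREBF1, the transcription factor of fatty acid synthesis, was 2.20-fold higher, at 84.3 ± 1.44 CPM in ALG6/UGGT2-/- cells, against 38.3 ± 1.88 CPM in ALG6-/- cells, whereas its targets FASN and ACLY had log2 fold changes of -0.41 and -0.57. Of 11 genes of fatty acid synthesis, 3 were higher and 3 lower as deposited and 2 were higher and 5 lower after rescaling (1 and 8 with the length and GC correction). Without ALG6-/- replicate 1 the deposited number higher was 5 for fatty acid synthesis, and without ALG6-/- replicate 3 or ALG6/UGGT2-/- replicate 2 it was 1 for cholesterol synthesis.

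**Figure D2:**
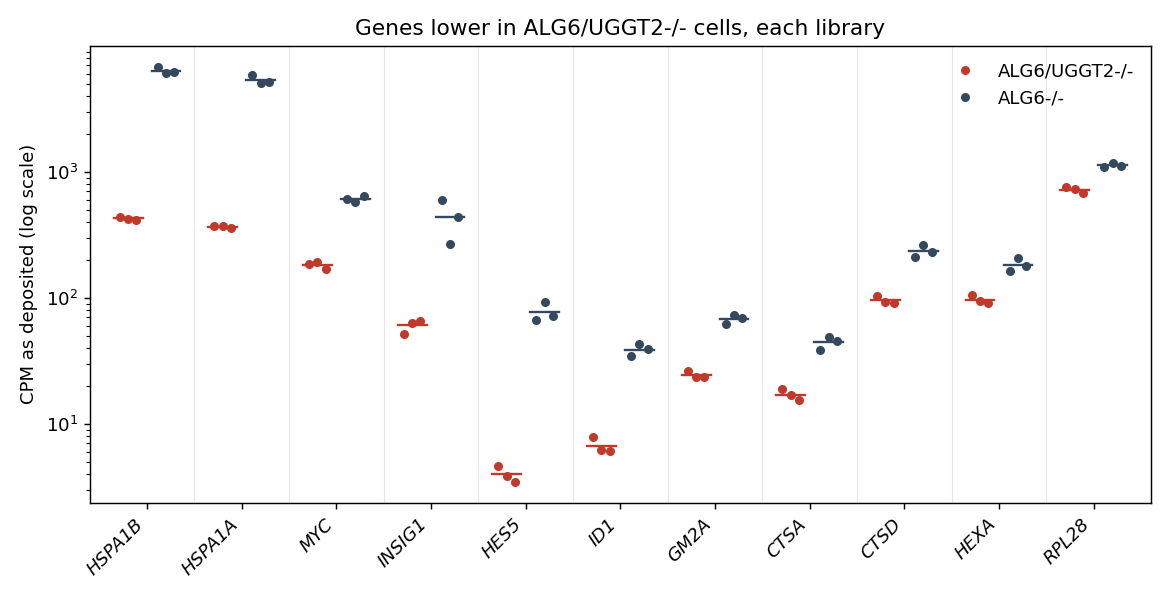
CPM as deposited (log axis) of 11 genes lower in ALG6/UGGT2-/- cells in each library, ALG6/UGGT2-/- cells in red and ALG6-/- cells in dark blue, with a line at the mean of 3 replicates. No ALG6/UGGT2-/- library overlapped an ALG6-/- library in these genes, from 19.3-fold between the means for HES5 to 1.57-fold for RPL28.

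Immediate early genes and genes controlled by BMP were examined next. MYC, a driver of growth, was at 186, 192 and 168 CPM in ALG6/UGGT2-/- cells and 607, 575 and 642 CPM in ALG6-/- cells, 3.34-fold lower (log2 fold change -1.74, adjusted p = 1.08e-08), with a mean of 318 CPM in WT cells. Of the 18 immediate early genes MYC belongs to, 5 were higher and 10 lower as deposited and 3 were higher and 11 lower after rescaling (3 and 10 with the length and GC correction), and JUNB was 3.28-fold lower while ATF3, described above, was higher. ID1, an inhibitor of differentiation induced by BMP, was at 7.79, 6.14 and 6.10 CPM in ALG6/UGGT2-/- cells and 34.3, 42.6 and 39.4 CPM in ALG6-/- cells, 5.80-fold lower. Its relatives ID2 and ID3 were lower as well, with log2 fold changes of -1.49 and -1.47, and of 12 genes that BMP and SMAD signalling controls 0 were higher and 7 lower as deposited, and 0 higher and 10 lower after rescaling (0 and 9 with the length and GC correction). In WT cells ID1 averaged 2.62 CPM and ID3 25.4 CPM, below both lines. HES5, a target of Notch, was at 4.66, 3.85 and 3.46 CPM in ALG6/UGGT2-/- cells and 66.9, 92.1 and 71.7 CPM in ALG6-/- cells, 19.3-fold lower.

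Genes of the cell cycle gave counts that depended on the scale. Of 26 mitotic genes, 9 were higher and 9 lower as deposited and 6 were higher and 11 lower after rescaling, and without ALG6-/- replicate 1 the deposited number higher was 14. Corrected for length and GC content, 4 were higher and 16 lower, with a median of -0.45, beside -0.03 and 36.2% lower for all genes. CCNB1, cyclin B1, was at 45.5, 45.5 and 45.1 CPM in ALG6/UGGT2-/- cells and 162, 147 and 142 CPM in ALG6-/- cells, 3.31-fold lower, while its paralogue CCNB2 was at 118, 113 and 107 CPM in ALG6/UGGT2-/- cells and 58.4, 56.5 and 52.1 CPM in ALG6-/- cells, 2.03-fold higher. Among 25 genes of DNA replication, 16 were higher and 4 lower as deposited, which became 6 and 7 after rescaling and 10 and 8 with the length and GC correction. Of all genes, 49.0% were higher and 19.4% lower as deposited, and 30.0% and 31.4% after rescaling. MCM3, part of the replicative helicase, was 1.90-fold higher and CDT1, which loads it, had a log2 fold change of -0.91. Of 20 p53 targets, 12 were higher and 2 lower as deposited and 10 were higher and 6 lower after rescaling (11 and 5 with the length and GC correction), and without ALG6/UGGT2-/- replicate 3 the deposited number lower was 1. The leading members, SESN2 (456, 413 and 406 CPM in ALG6/UGGT2-/- cells against 78.8, 103 and 101 CPM in ALG6-/- cells), GDF15 and TNFRSF10B, are known as targets of ATF4 or CHOP too, and CDKN1A had a log2 fold change of 0.81 as deposited and 0.35 rescaled (adjusted p = 0.153).

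Ribosomal protein genes were lower nearly throughout. As deposited 64 of 78 were lower and 0 higher, with a median log2 fold change of -0.52, after rescaling 76 were lower and 0 higher, with a median of -0.99, and once length and GC content were corrected for 63 were lower and 3 higher, with a median of -0.49. Together they held 96690.2 to 108111 CPM in the ALG6/UGGT2-/- libraries and 130578 to 150547 CPM in the ALG6-/- libraries, against 102322 to 134074 CPM in WT cells. RPL28, a protein of the large subunit, was at 753, 733 and 673 CPM in ALG6/UGGT2-/- cells and 1100.0, 1184 and 1114 CPM in ALG6-/- cells. Nuclear genes of the respiratory chain were alike, with 4 of 52 higher and 36 lower as deposited, 1 higher and 43 lower after rescaling and 2 higher and 39 lower with the length and GC correction, and the median of -1.0 on the rescaled values became -0.44 once length and GC content were corrected for. COX7C, a subunit of cytochrome c oxidase, was 2.50-fold lower, at 152 ± 5.54 CPM in ALG6/UGGT2-/- cells, against 380.0 ± 28.6 CPM in ALG6-/- cells. Both groups consist of short transcripts, and the part of transcript length in their fall was not tested beyond this correction.

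The mRNAs of the mitochondrial genome, which are cut from long shared transcripts, did not move together. Of 13, 6 were higher and 3 lower in ALG6/UGGT2-/- cells as deposited, and 3 were higher and 6 lower after rescaling (3 and 3 with the length and GC correction). Of all genes, 49.0% were higher and 19.4% lower as deposited, and 30.0% and 31.4% after rescaling (32.7% and 36.2% with the correction). MT-ND1, a subunit of complex I, was at 2592, 2415 and 2129.9 CPM in ALG6/UGGT2-/- cells and 856, 908 and 1034 CPM in ALG6-/- cells, while MT-ND4, another subunit of it, was at 7093, 6947 and 6417 CPM in ALG6/UGGT2-/- cells and 9882, 11155 and 11938 CPM in ALG6-/- cells. MT-ND1 had a log2 fold change of 1.35 as deposited and 0.89 rescaled, and MT-ND4 one of -0.69 and -1.15, so their opposite directions held on both scales. Of 27 genes of glycolysis and hypoxia, 5 were higher and 15 lower as deposited and 2 were higher and 17 lower after rescaling (3 and 18 with the length and GC correction). TXNIP, which restrains glucose uptake, was at 207, 195 and 187 CPM in ALG6/UGGT2-/- cells and 21.9, 12.4 and 13.0 CPM in ALG6-/- cells, 12.5-fold higher (log2 fold change 3.64, adjusted p = 8.78e-09), with 174 CPM on average in WT cells. NDRG1, induced by hypoxia, was 2.96-fold lower and HK1, hexokinase, had a log2 fold change of -1.12. Targets of NRF2, the factor of oxidative stress, were higher in 4 and lower in 8 of 16 as deposited, and SLC7A11, which ATF4 controls too, was the 1 that was higher after rescaling, beside 10 that were lower (2 and 12 with the length and GC correction). Proteasome genes were higher in 15 and lower in 7 of 31 as deposited and higher in 6 and lower in 9 after rescaling (12 and 9 with the length and GC correction). As deposited this was near the shares of all genes given above. Of 32 genes of the extracellular matrix and adhesion, 8 were higher and 9 lower as deposited and 4 were higher and 13 lower after rescaling (2 and 16 with the length and GC correction). The deposited number higher was 13 for the matrix genes without ALG6-/- replicate 1, 2 for the NRF2 targets without ALG6-/- replicate 2 or 3 or ALG6/UGGT2-/- replicate 2 or 3, and 3 for glycolysis and hypoxia without ALG6/UGGT2-/- replicate 3.

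**Figure D3:**
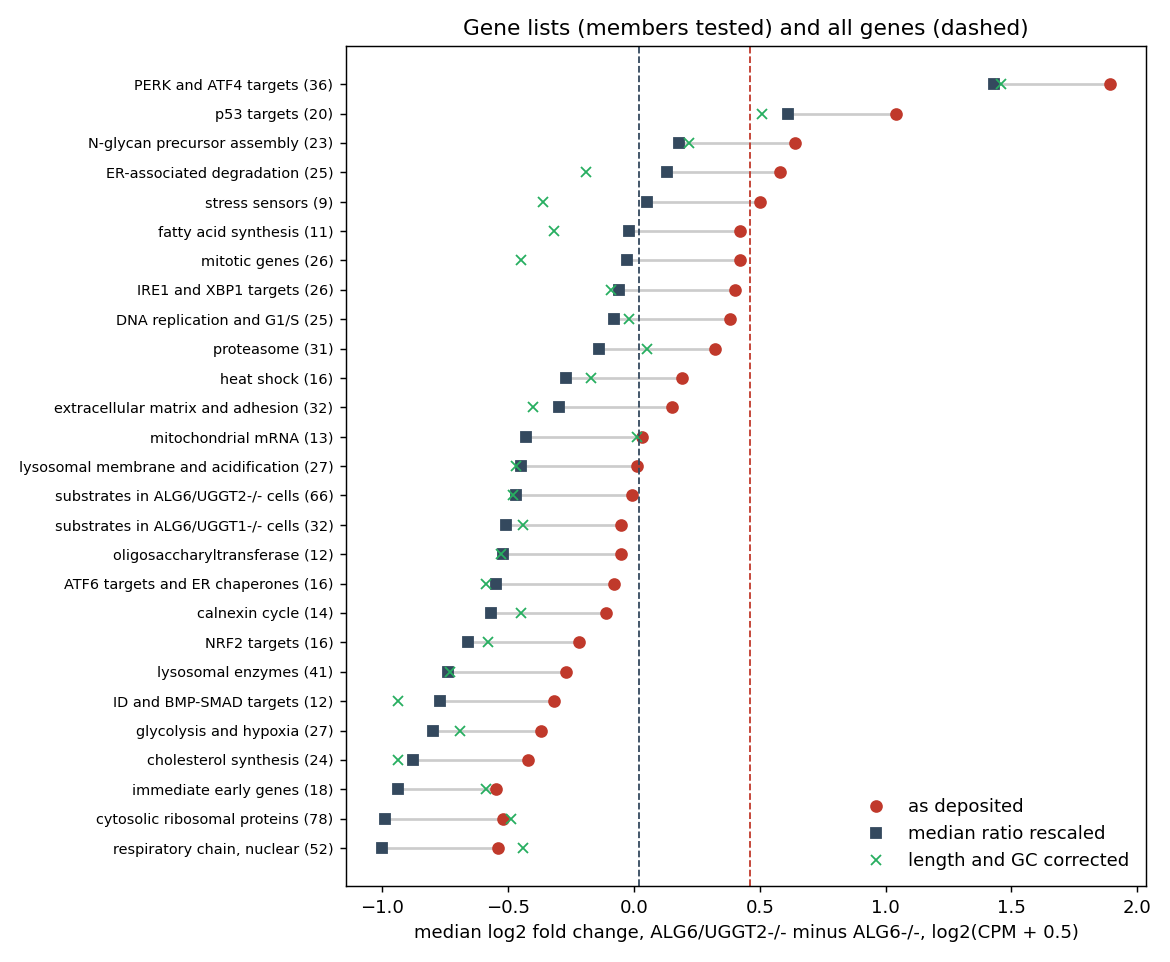
Median log2 fold change (horizontal axis, ALG6/UGGT2-/- minus ALG6-/-) of the members tested of 27 gene lists, as deposited (red circles), after median ratio rescaling (blue squares) and after correction for length and GC content (green crosses), with the medians of all genes, 0.46 as deposited and 0.02 rescaled, as dashed lines. PERK and ATF4 targets lay at the upper end on all 3 scales (1.89, 1.43 and 1.46), and the nuclear genes of the respiratory chain (-0.54, -1.0 and -0.44) and the ribosomal protein genes (-0.52, -0.99 and -0.49) lay below the medians of all genes.

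Among the largest single changes were several genes near 0 CPM in 1 of the lines and others, such as HSPA1B, with 416 to 440.2 CPM in the lower line. Called in the same direction as deposited, after rescaling and in a fit of only the 6 libraries were 3829 higher and 2358 lower genes, of which 3046 and 2124 also had separate replicates, with the higher line at 5 CPM or more. Among the 12 largest rises of these, DTX3, a ubiquitin ligase of the Deltex family, was at 25.6, 23.8 and 23.4 CPM in ALG6/UGGT2-/- cells and 0.0404, 0.0848 and 0.0414 CPM in ALG6-/- cells, with 9.48 CPM on average in WT cells. TNFRSF9, the T cell costimulatory receptor also known as 4-1BB, was at 72.8, 73.0 and 77.8 CPM in ALG6/UGGT2-/- cells and 3.23, 2.97 and 2.52 CPM in ALG6-/- cells, 25.6-fold higher. DNAH17, an axonemal dynein, was at 255, 231 and 248 CPM in ALG6/UGGT2-/- cells and 13.8, 12.8 and 15.3 CPM in ALG6-/- cells, 17.6-fold higher. GDAP1L1 was 33.7-fold and FBLL1 19.9-fold higher, and IAH1, KLHDC7B, IFI16 (a sensor of DNA), ALPK2, RGPD5 and MAL2 averaged 0.0283 to 1.15 CPM in ALG6-/- cells. RGPD5 belongs to a family of near-identical genes and its reads can be shared with them.

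Among the 12 largest falls, HES5, HSPA1A and HSPA1B are given above. SPATC1L was at 0.0764, 0.205 and 0.272 CPM in ALG6/UGGT2-/- cells and 14.9, 17.0 and 14.1 CPM in ALG6-/- cells. PLPP2, a lipid phosphatase, was at 0.0764, 0.164 and 0 CPM in ALG6/UGGT2-/- cells and 6.06, 8.43 and 6.54 CPM in ALG6-/- cells. Both were thus near 0 in ALG6/UGGT2-/- cells, and their fitted log2 fold changes of -4.54 and -3.69 depend on the pseudocount. The histone genes HIST2H2AA4 and HIST2H2BE averaged 7.69 and 3.55 CPM in ALG6/UGGT2-/- cells and 147 and 50.5 CPM in ALG6-/- cells, and HIST2H2AA4 has a near-identical copy that can share its reads. ARC, an immediate early gene of neurons, was 12.0-fold lower, at 3.88 ± 0.545 CPM in ALG6/UGGT2-/- cells, against 46.5 ± 5.31 CPM in ALG6-/- cells.

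The same loss of UGGT2 was also made in cells that lack UGGT1, and ALG6/UGGT1/UGGT2-/- cells against ALG6/UGGT1-/- cells gave a second measurement of it that shares no library with the first. On the rescaled values 5662 genes (40.3%) were called there. Of these, 3982 were called in both comparisons, which is 46.1% of the first list and 70.3% of the second, and 17.8% of the 3982 went the same way: 326 were higher in both and 381 lower in both. The other genes were reversed, with 1491 higher in ALG6/UGGT2-/- cells and lower in ALG6/UGGT1/UGGT2-/- cells and 1784 the other way round. Across genes Spearman's rho of both log2 fold changes was -0.44, and -0.39 once length and GC content were corrected for. A test of the difference between both effects called 8528 genes (60.7%). ATF3 had a rescaled log2 fold change of 1.79 in ALG6/UGGT2-/- cells against ALG6-/- cells. It had -1.89 in ALG6/UGGT1/UGGT2-/- cells against ALG6/UGGT1-/- cells. In the same order XBP1 had 1.5 and -1.19, CTH 2.59 and -2.72, and TXNIP 3.19 and -2.44. CALR was reversed the other way, with -1.34 and 1.25, at 406 ± 31.9 CPM in ALG6/UGGT2-/- cells, against 2335 ± 49.7 CPM in ALG6/UGGT1/UGGT2-/- cells. ATF5 was higher in both, with 2.75 and 1.04.

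A small set of genes was low in both lines without UGGT2. Over the 15 libraries, all 6 libraries of ALG6/UGGT2-/- and ALG6/UGGT1/UGGT2-/- cells lay below all 9 others in 238 of the 14049 genes tested. They lay above all 9 others in 286, and at least 5-fold lay between the means in 17 and 9 of these. Whether other pairs of lines share as many genes was not tested. The genes named here were chosen otherwise, by the smallest p-values among genes called in the same direction in both comparisons as deposited. Their p-values are therefore no independent support. POMT1 (chromosome 9, 131502789 to 131523806), an enzyme of protein O-mannosylation, was at 3.17, 3.89 and 2.87 CPM in ALG6/UGGT2-/- cells and 37.9, 41.2 and 40.1 CPM in ALG6-/- cells, 12.0-fold lower (log2 fold change -3.41, standard error 0.12, adjusted p = 6.92e-10). It was at 2.61, 2.45 and 1.79 CPM in ALG6/UGGT1/UGGT2-/- cells, against 44.1, 45 and 43.4 CPM in ALG6/UGGT1-/- cells, and at 34.8 to 37.8 CPM in WT cells. CLIP3, a cytoplasmic linker protein, was at 0.688, 0.819 and 0.738 CPM in ALG6/UGGT2-/- cells and 13.8, 15.4 and 15.1 CPM in ALG6-/- cells, 19.7-fold lower, and at 0.341 CPM on average in ALG6/UGGT1/UGGT2-/- cells against 22.7 CPM in ALG6/UGGT1-/- cells. OAS3, an antiviral enzyme, was listed at 0 in all 6 libraries without UGGT2 and at 3.60 to 3.92 CPM in ALG6-/- cells. ZNF22, a zinc finger protein, and GSTM4, a glutathione transferase that resembles its relatives closely enough to share reads with them, were near 0 in both lines as well, with 4.92 to 9.45 and 5.26 to 5.47 CPM in ALG6-/- cells.

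Other genes, chosen in the same way, were higher in both lines without UGGT2, with DTX3, given above, among them. SYK, a tyrosine kinase of immune signalling, was at 51.0, 46.6 and 44.1 CPM in ALG6/UGGT2-/- cells and 16.4, 18.5 and 16.4 CPM in ALG6-/- cells, 2.76-fold higher (log2 fold change 1.44, adjusted p = 1.53e-08). It was at 76.5, 78.6 and 74.8 CPM in ALG6/UGGT1/UGGT2-/- cells, against 25.1, 23.2 and 24.7 CPM in ALG6/UGGT1-/- cells. IGLON5, a neuronal adhesion protein, was at 14.9, 13.5 and 12.5 CPM in ALG6/UGGT2-/- cells and 0.687, 0.890 and 0.538 CPM in ALG6-/- cells, 19.4-fold higher, and BEND5 was 5.00-fold higher. KCNK2, a potassium channel, was at 2.52, 2.82 and 2.80 CPM in ALG6/UGGT2-/- cells and near 0 in ALG6-/- cells. Whether genes that are off in both lines were off in a cell from which both lines descend was not tested.

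**Figure D4:**
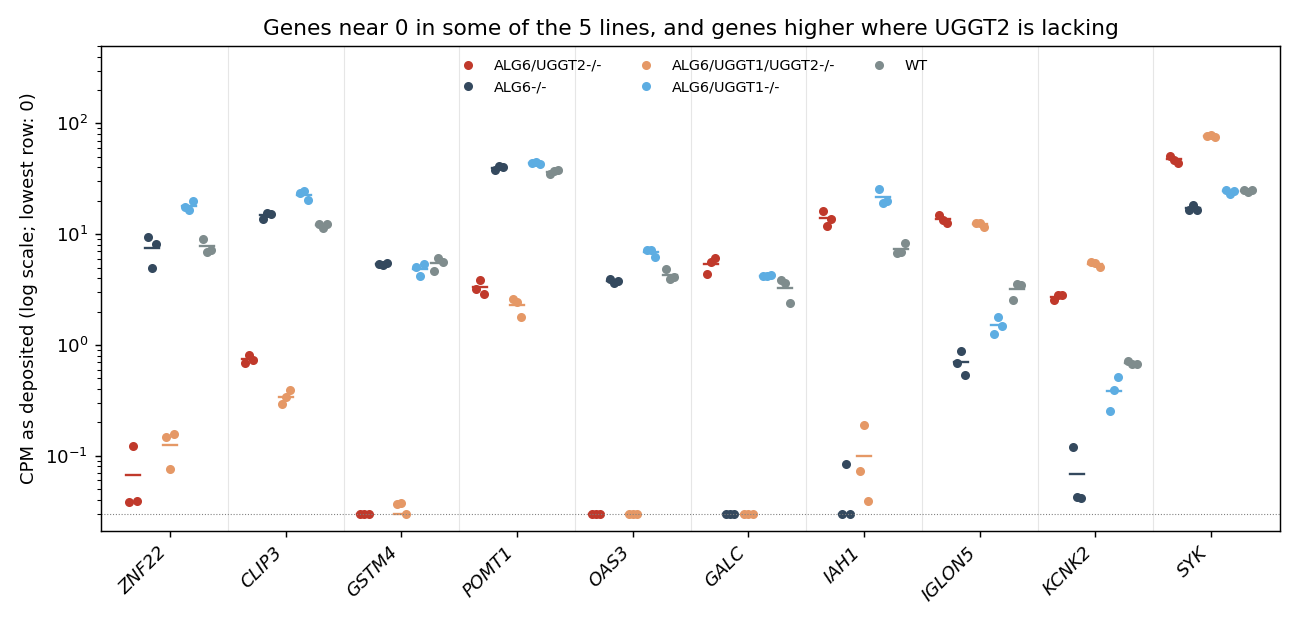
CPM as deposited (log axis, with libraries at 0 on the lowest row) of 10 genes in the 15 libraries, in the order ALG6/UGGT2-/- (red), ALG6-/- (dark blue), ALG6/UGGT1/UGGT2-/- (orange), ALG6/UGGT1-/- (light blue) and WT (grey), with a line at the mean of 3 replicates. ZNF22, CLIP3, GSTM4, POMT1 and OAS3 were lowest in both lines without UGGT2, GALC and IAH1 were at or near 0 in ALG6-/- and ALG6/UGGT1/UGGT2-/- cells, and IGLON5, KCNK2 and SYK were highest in both lines without UGGT2.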

How the data were processed

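The authors prepared poly(A) libraries with a directional kit, sequenced 76-base paired reads, used STAR for alignment to hg38, RSEM for abundance and edgeR for the CPM values, combining 4 lanes per library. Tool versions are not given in the sources used here. The deposited table of CPM values was read as it stands, without 8 columns that have no header. In the low values 1 CPM was worth 23.6 to 27.2 reads, but only 89.7 to 90.8% of values were whole reads (within 0.02), so no count test was run. The test was that of limma 3.58.1 (R 4.3.3) on log2(CPM + 0.5), in 1 fit of the 15 libraries with a variance trend and 10 residual degrees of freedom. It was tried on simulated data that held neither the scale shifts nor the length and GC trends of these libraries. That trial therefore does not cover them. Library sums and figures used Python 3.11.15, pandas 2.3.3, NumPy 2.4.6 and SciPy 1.17.1. Length and GC content came from GENCODE 44 (GRCh38) and entered as natural splines with 5 degrees of freedom.

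Members and gene lists were chosen with earlier results of these data known. Genes are named by a rule: the knocked-out genes, the 12 largest changes per direction among genes called on both scales and in the 6 libraries with replicates that do not overlap and the higher line at 5 CPM or more, up to 4 members per list with the smallest p, genes the study shows, and 5 genes per direction shared with the cells without UGGT1. Other members named (among them CBS, DDIT3, PSAT1, ASNS, SHMT2, CDKN1A, SEL1L, ATF6, CANX, STT3A, STT3B, HSPA8, HSPH1, HSP90AA1, DNAJA1, IGF1R, IGF2R, the ALG and DPM genes) were chosen after their values were seen. Results on some single genes are not reported here. Alternatives were other pseudocounts, filters, scalings, weights and libraries, and each replicate left out.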

Additional observations from a re-analysis of the deposited data

Results flagged for a closer look

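The effect of losing UGGT2 was compared between cells that keep UGGT1 (ALG6/UGGT2-/- against ALG6-/-) and cells that lack it (ALG6/UGGT1/UGGT2-/- against ALG6/UGGT1-/-), and the difference of both effects, on the rescaled log2 scale, passed the limma interaction test in 8528 genes. Among ALG6 and the genes of the stress response and lysosome named above, the difference was 3.68 for ATF3, 2.70 for XBP1, 1.71 for ATF5, 1.28 for EIF2AK3 and 1.11 for ALG6, all with the larger value in the cells that keep UGGT1. It was -2.60 for CALR, -2.23 for HEXA, -2.07 for GLA, -1.81 for PDIA4, -1.05 for EDEM2 and -0.96 for TPP1. As ALG6-/- cells lay apart from the other 4 lines in 3995 of the 8629 genes called, the difference between these effects and a peculiarity of the ALG6-/- line cannot be told apart. Groups of 3 were too small for a test of single libraries.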

How the results depend on the processing

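Over 20 alternatives, 59 of the 141 named genes had the same call and direction in every one, and of 2810 values 2673 were the same, 106 no longer passed, 10 newly passed and 21 reversed. The count of 9609 genes changed kept within 1.5 times except with a minimum log2 fold change of 1, which left 1204 (995 higher, 209 lower, 82.6% higher), 366 where UGGT1 is absent and 2980 for the difference of both effects. The split by direction rested on the scale: 4219 higher and 4410 lower (48.9% higher, median 0.02) after rescaling, 4126 and 4446 (48.1%, median 0.00) after quantile normalization and 4237 and 4682 (47.5%, median -0.03) after the length and GC correction, against 6880 and 2729 (71.6%, median 0.46). Rescaling with only the 6 libraries, chosen after seeing the data, gave 3214 higher genes (48.2%, median 0.02), and only the 6 libraries as deposited gave 7824 genes. Without a filter the median was 0.14. Rescaled, 604 called genes had ALG6/UGGT2-/- cells apart, against 945 as deposited.

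Reversed were UGGT2 (-0.02 rescaled over 15 or 6 libraries, -0.20 by quantiles, -0.62 length and GC), ARSA (-0.39, -0.37, -0.09), FUCA1 (-0.46, -0.40, -0.34, and -0.01 with array weights), NAGLU (-0.35 rescaled, -0.19 by quantiles), KRTCAP2 (0.02) and FADS1 (-0.06), the last 2 by length and GC. The cause was not tested. With array weights UGGT1 passed (1.14), 12665 genes were called in the main comparison and 11024 where UGGT1 is absent. The weight was 8.41 for ALG6-/- replicate 3, against 0.147 and 0.0897 for replicates 1 and 2. It was 8.32 for ALG6/UGGT2-/- replicate 2, against 0.257 and 1.05 for replicates 1 and 3. In each line this fit thus rested mostly on a single library.

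Leaving out each replicate gave 8346 to 10616 genes changed, 5909 to 7796 higher and 2437 to 2820 lower, 69.3 to 73.4% higher, medians of 0.32 to 0.55, 6153 to 7312 genes where UGGT1 is absent, 8661 to 10463 for the difference of both effects, and log2 fold changes of 1.47 to 1.80 for ALG6, 0.39 to 1.71 for UGGT1 and 0.19 to 0.60 for UGGT2. HSPA5 ran from -0.62 to 0.19 (without ALG6-/- replicate 1), and FUCA1 from -0.06 to 0.07, with -0.01 without ALG6-/- replicate 2. With the replicate block 9137 genes were called. Libraries with the same number did not deviate together (correlations -0.77, -0.59 and 0.33), so the numbers do not pair them. With 3 replicates of 1 clone per genotype, p-values cover only the spread between cultures of a line, pooled over all lines in the main fit. They do not cover the spread between clones.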

Other observations

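Changes were uneven over the chromosomes once length and GC content were corrected for. On chromosome 14 the median log2 fold change was 0.43, with 255 of 441 genes higher and 49 lower in ALG6/UGGT2-/- cells, and on chromosome 22 it was 0.32, with 170 of 311 higher and 48 lower. On chromosome 21 the median was -0.37 (20 of 122 higher and 65 lower) and on chromosome 5 it was -0.31 (119 of 582 higher and 294 lower). Over all genes it was -0.03, with 32.7% higher and 36.2% lower. Medians relative to genes at large were also taken against ALG6/UGGT1/UGGT2-/-, ALG6/UGGT1-/- and WT cells, in that order. They were 0.45, -0.02 and 0.14 on chromosome 14, and 0.01, 0.12 and 0.26 on chromosome 22. On chromosome 21 they were -0.12, 0.0 and -0.18, and on chromosome 5 -0.03, -0.37 and -0.12. SEL1L, the ubiquitin ligase adaptor, and GALC, the galactosylceramidase, are on chromosome 14. XBP1, which was higher, is on chromosome 22, but so are DERL3 and SDF2L1, which were lower. CBS and SPATC1L, both lower, are on chromosome 21, and CCNB1 and COX7C are on chromosome 5. Copy number was not measured here, and its part in these values was not tested.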
